A study of Homo sapiens with 4 samples.

Results

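The 42 genes described here carry human cells from the G2 phase of the cell cycle through mitosis. They were listed by symbol for their function, and all 42 were found among the 36601 human genes counted in the series. The series measured RNA in single-cell libraries from tumours of PANC-1, a human pancreatic ductal adenocarcinoma line, grown under the skin of nude mice, a host strain without functional T cells. There was 1 library each for agrimoniin, erlotinib, the combination of agrimoniin with erlotinib, and control. Agrimoniin is an ellagitannin of agrimony plants, and erlotinib inhibits the tyrosine kinase of the epidermal growth factor receptor. All 4 groups share the same cell line and host, and nothing else distinguished the groups in the labels. The series' design text names cyranin where the sample label says erlotinib, and the label was followed. Dose, route, duration, host age and the number of animals behind a library were not given in the sources used here. With 1 library per group no difference below has a replicate check. Each value compares libraries, not treatments, and the 3 comparisons with control share that library.

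Entry into mitosis is driven by the kinase CDK1 with its cyclins A and B. CDC25 phosphatases activate it and the kinase WEE1 holds it back. Once the chromosomes have condensed, a bipolar spindle captures their kinetochores. The spindle checkpoint delays the anaphase-promoting complex until all of them are attached, and cytokinesis then divides the cell. Transcripts for this machinery are made together late in the cycle. In resting and early cycling cells the DREAM complex, which holds E2F4 and the MuvB core with its DNA-binding subunit LIN54, represses them. In G2 the same core works with B-MYB, the product of MYBL2, and with FOXM1 to activate them. LIN54 recognises a promoter element called the CHR (cell cycle genes homology region), and the factor NF-Y binds CCAAT boxes that often lie upstream of it.

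The promoters are shown because many of the members, though not all, share short motifs there, as counted below. RefSeq promoter windows on GRCh38.p14, 250 bases before to 50 bases after a gene start, were matched by symbol for 36 of the 42 members. AURKA, BIRC5, TTK, TPX2, UBE2C and BUB3 were not matched. Below are the 130 bases before the start for 5 members, 5′ to 3′ on the gene's own strand. Capitals mark the CHR hexamer TTTGAA and the CCAAT box, read on that strand.
CDC20: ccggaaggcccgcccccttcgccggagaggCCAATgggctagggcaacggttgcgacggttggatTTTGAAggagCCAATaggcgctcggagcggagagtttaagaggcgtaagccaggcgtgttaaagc
CCNB2: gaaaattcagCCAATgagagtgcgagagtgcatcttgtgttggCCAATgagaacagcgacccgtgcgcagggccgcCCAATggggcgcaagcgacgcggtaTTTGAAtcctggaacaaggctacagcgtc
PLK1: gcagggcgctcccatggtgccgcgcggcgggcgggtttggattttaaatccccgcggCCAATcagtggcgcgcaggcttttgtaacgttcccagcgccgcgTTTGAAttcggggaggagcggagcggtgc
PRC1: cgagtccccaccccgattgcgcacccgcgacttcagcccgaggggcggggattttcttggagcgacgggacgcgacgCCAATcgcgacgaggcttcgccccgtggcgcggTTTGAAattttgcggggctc
CCNB1: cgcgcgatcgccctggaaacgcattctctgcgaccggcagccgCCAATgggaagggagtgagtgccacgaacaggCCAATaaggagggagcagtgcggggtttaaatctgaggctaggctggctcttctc
These stretches lie at chr1:43358851-43358980 on the plus strand for CDC20, chr15:59105016-59105145 on the plus strand for CCNB2 and chr16:23678759-23678888 on the plus strand for PLK1. PRC1 is shown from chr15:90994536-90994665 on the minus strand, and CCNB1 from chr5:69167020-69167149 on the plus strand. GENCODE 29, the annotation used for gene spans below, starts all 5 genes farther upstream than RefSeq, so the stretches lie partly or wholly inside its gene spans.

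In CCNB2 and PLK1 the hexamer starts 29 bases before the gene start, and in PRC1 20 bases before it. In the stretch shown, CDC20 has the hexamer 65 bases before its start, between a pair of CCAAT boxes. CCNB1 holds a pair of CCAAT boxes and no hexamer in its window, which says only that these letters are absent from it.

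The windows were searched on both strands for the hexamers TTTGAA and TTCGAA, a variant that reads the same on both strands, and for CCAAT. Neighbouring matches may overlap and were counted separately. At least 1 hexamer occurred in 28 of the 36 matched members (77.8%), against 19.5% of the 27305 genes with a window. Within 50 bases of the start it occurred in 25 members (69.4%), against 6.24% of all genes. A CCAAT box was present in 29 members (80.6%) and in 39.7% of all genes. Both motifs occurred together in 24 members (66.7%) and in 7.85% of all genes. The 8 matched members without a hexamer were AURKB, CCNA2, CCNB1, CENPE, CKAP2, KIF20A, KIF2C and PTTG1. A further list of mitotic machinery genes that holds none of the members had the hexamer in 29 of 39 genes (74.4%). A list of replication and S phase genes had it in 2 of 27 (7.41%), although 16 of those 27 held a CCAAT box. A match is a run of letters, not a measured binding site.

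**Figure D1:**
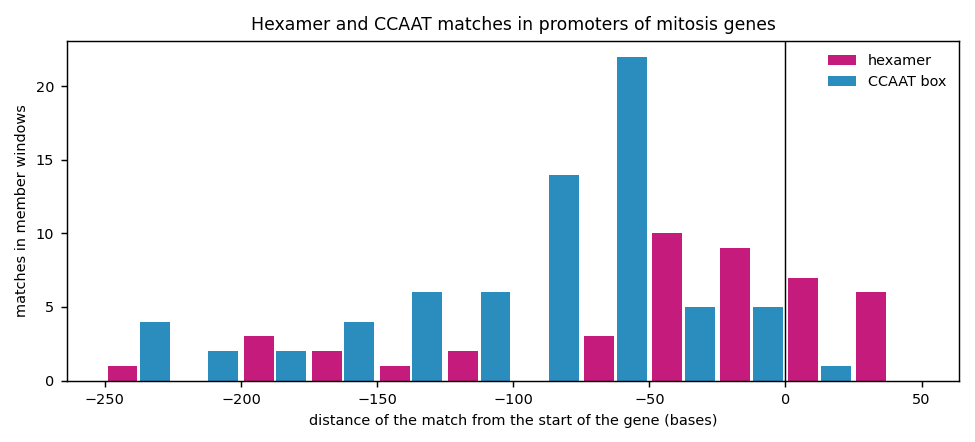
Matches of the CHR hexamer and of the CCAAT box in the 46 promoter windows of 36 mitosis genes, by distance of the match's first base from the gene start in bins of 25 bases. Overlapping windows of a gene can hold the same match more than once. Of 44 hexamer matches 32 lie within 50 bases of the start, and of 71 CCAAT matches 41 lie from 100 to 26 bases before it.

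The libraries held 297 barcodes for agrimoniin, 306 for erlotinib, 251 for the combination and 202 for control, and shared no barcode. The barcodes have 27 bases, which is not the layout of the Chromium kit named in the labels, so the platform is in doubt. Barcodes carried UMIs (unique molecular identifiers, each standing for a captured RNA molecule) of both species, so the human UMIs of a barcode are called its human part here, and such a part may hold more than a single cell. After filters, 283, 292, 245 and 193 human parts remained, with medians of 12653, 11926, 11819 and 11586 human UMIs. The human share of UMIs had medians of 75.5%, 75.6% and 79.6% in the treated libraries and 68.5% in control, and the mitochondrial share had medians between 8.97% and 10.1%. Doublets were not called. Of the PANC-1 markers, KRT8 (36.0 to 49.2 counts per 1000000 human UMIs, CPM), KRT18 (47.2 to 65.4 CPM), VIM (5609 to 6272 CPM) and EGFR (160 to 184 CPM) were present, while KRT19 and KRT7 did not exceed 1.24 CPM. Human PTPRC, PECAM1, LYZ and HBB, markers of leukocytes, endothelium, myeloid and red cells, were at or near 0, at most 0.826 CPM, while human CD68 had 7.68 to 9.09 CPM. Human COL1A1 had 5545 to 6500 CPM, and its source was not tested. CDKN2A, which PANC-1 is known to have lost, had 0 UMIs in all 4 libraries, which allows up to 0.813, 0.795, 0.965 and 1.24 CPM at 3 counts. It was looked at after the data had been seen.

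The members varied together across the human parts. For each gene, its level (natural log of 1 plus UMIs per 10000 human UMIs) was correlated within each library with the score of the members, their summed UMIs per 10000 human UMIs, and a member was left out of its own score. Among the 8803 genes detected in 10% or more of the parts of every library, 30 members ranked in the first 50 and 38 in the first 100, of 41 members compared. The median coefficient over the 4 libraries was 0.02 for all genes compared. CDC25C was the member detected in too few parts for a rank. These coefficients are descriptions over 193 to 292 parts of a library. The parts share that library and differ in depth, and the score itself had a coefficient of 0.20 to 0.33 with the human UMI count of a part and of 0.15 to 0.27 with its human share.

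The spindle assembly factor TPX2, which activates Aurora A on microtubules, followed the other members most closely, with a median coefficient of 0.82 and a range of 0.79 to 0.84. CENPF, a large protein of the outer kinetochore, had 0.80 (0.76 to 0.81). These are also the members with the highest mean levels, 392 CPM for TPX2 and 339 CPM for CENPF. Few counts lower a coefficient, and the coefficients here were not corrected for level. MKI67, the Ki-67 protein that coats mitotic chromosomes, had 0.77 in a range of 0.76 to 0.77. TOP2A, the topoisomerase that disentangles sister chromatids, had 0.74 (0.72 to 0.78). PRC1, which bundles the central spindle in anaphase, had 0.73, and BIRC5 (survivin), the chromosomal passenger subunit that recruits the complex to centromeres, had 0.68. Genes of different steps, from chromatid decatenation to cytokinesis, are therefore in this upper group.

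A few members followed the others less. CDC25B, a phosphatase that starts CDK1 activation, had a coefficient of 0.01 (-0.08 to 0.04) and ranked 4412 of 8803. CKS2, a small subunit that docks CDK1 to its substrates, had 0.37 and ranked 135. BUB3, which brings checkpoint kinases to kinetochores, had 0.40 at rank 116, and ECT2, the exchange factor that activates RhoA for the cleavage furrow, had 0.46 at rank 83. The share of a gene's UMIs found in the 25% of parts with the highest score showed the same order at the low end. It was 27.9% for CDC25B, 42.9% for CKS2, 44.5% for BUB3 and 52.3% for ECT2. Unlike the coefficients, these shares used a score that included the gene itself, and parts with a high score were also deeper. A gene spread evenly over parts could therefore exceed 25%. At the other end stood CDCA3, a trigger of mitotic entry, at 88.9%, PLK1 at 88.5% and KIF20A at 88.0%.

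**Figure D2:**
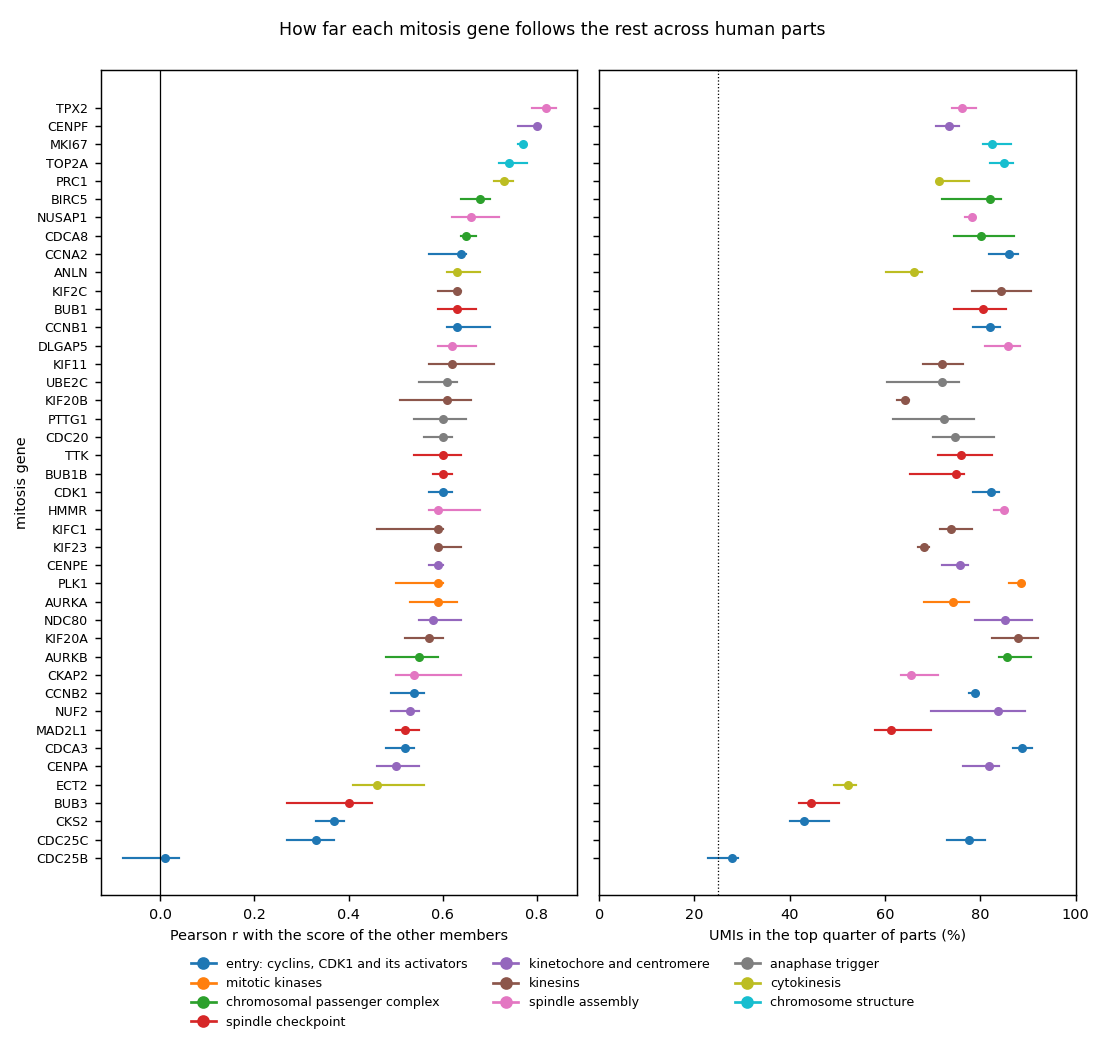
Left, the Pearson coefficient of each mitosis gene with the score of the other members across human parts. Right, the percentage of its UMIs in the 25% of parts with the highest score over all members, with a dotted line at 25%. Points are medians and lines the range over 4 libraries, coloured by role. TPX2, CENPF and MKI67 lie at the top, and CDC25B stands alone near 0 on the left and near 25% on the right.

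The 10 genes outside the list with the closest pattern to the score, by median coefficient over the 4 libraries, were HMGB2, TYMS, NCAPG, HJURP, ASPM, SMC4, TUBA1B, CEP55, SGO2 and KNL1. HMGB2, a chromatin protein of the high mobility group, had 0.72 (0.68 to 0.73) and ranked 6 of all genes. TYMS, the thymidylate synthase of DNA precursor synthesis, had 0.65. NCAPG and SMC4, subunits of condensin, had 0.65 and 0.64, and HJURP, the chaperone that deposits the centromeric histone CENPA, had 0.65. ASPM at spindle poles had 0.64, and KNL1 of the kinetochore 0.61. Of the regulators, FOXM1 had 0.50 (0.43 to 0.54) at rank 68 and MYBL2 0.30 (0.25 to 0.40) at rank 185. WEE1 had 0.05 at rank 2760, and CDKN1A, the CDK inhibitor p21, had 0.08 at rank 2080.

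The mitotic signal was concentrated in a minority of parts in every library. The median score was 13.5 member UMIs per 10000 in agrimoniin, 16.5 in erlotinib, 11.9 in the combination and 13.7 in control. The highest scores were 203, 252, 153 and 217 in the same order. The 25% of parts with the highest score held 72.3% of member UMIs in agrimoniin, 68.9% in erlotinib, 73.6% in the combination and 71.1% in control. The upper 10% of parts alone held 40.5% to 45.8%. Parts were ranked by these same UMIs, so the upper parts hold more than an equal share by construction, and no expected share was computed.

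To compare libraries at equal depth, parts were thinned to 5000 human UMIs, which left out 1 part in agrimoniin and 1 in erlotinib. A part was called high at a score of at least 28 per 10000, which is 2 times the median pooled over all libraries. High parts made up 34.4% of parts in agrimoniin (exact Clopper-Pearson 95% interval 28.9 to 40.3), 35.7% in erlotinib (30.2 to 41.5), 33.1% in the combination (27.2 to 39.3) and 31.1% in control (24.6 to 38.1). The 4 intervals overlap. They cover counting of parts only, and with 1 library per group the spread between libraries is not known. The score is a continuous measure and the cut is a range, not a cell type: 21, 30, 20 and 12 parts lay within 20% of it. Within the high parts the members summed to 7602 CPM in agrimoniin, 7081 in erlotinib, 6777 in the combination and 7308 in control. The other parts held 1068, 1226, 980 and 1127 CPM, and the share of this level that comes from free RNA was not tested. Median depth was 13264 to 14108 human UMIs in high parts and 10856 to 11981 in the others.

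**Figure D3:**
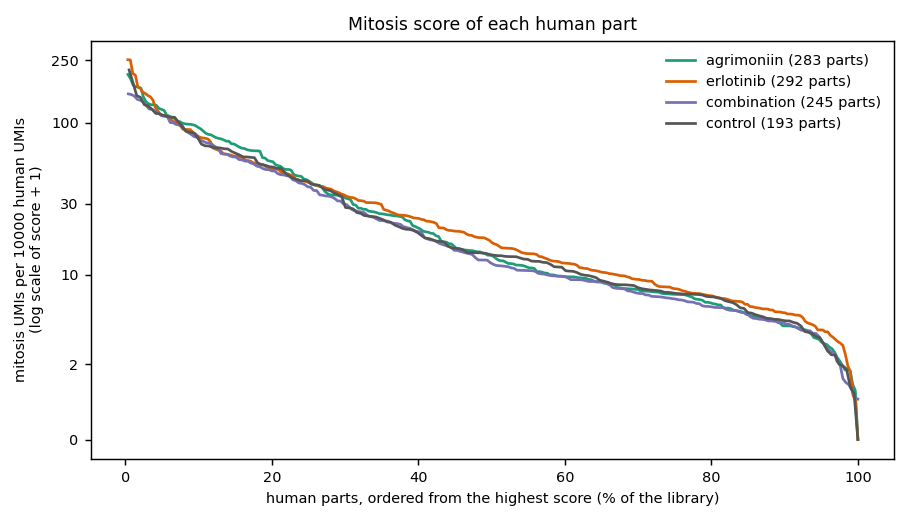
Mitosis score of every human part, in member UMIs per 10000 human UMIs on a log scale of the score plus 1, ordered from the highest score in each library. The 4 curves lie close together over most of their length, with medians between 11.9 (combination) and 16.5 (erlotinib), and the erlotinib curve runs highest through the middle.

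Summed over the human parts, the members had 3576 CPM in agrimoniin, 3603 CPM in erlotinib, 3267 CPM in the combination and 3292 CPM in control. The single-drug libraries were thus about equal and the combination stood at the control level. The ratio to control was 1.086 for agrimoniin (exact 95% interval 1.056 to 1.117), 1.094 for erlotinib (1.064 to 1.125) and 0.992 for the combination (0.964 to 1.022), which became 1.069 among parts with at most 10% mitochondrial UMIs. These intervals, like all intervals here, cover counting error only. In such sums, fewer dividing cells and less mitotic RNA per cell cannot be told apart. The sums rest on 13198, 13603, 10159 and 7969 member UMIs. The upper 10% of parts by score held 40.5% to 45.8% of these, and the intervals do not cover the spread between parts. Control was the library with the lowest level for 22 of the 42 members, as it was for 32.2% of all genes with a mean of at least 10 CPM. Erlotinib was the library with the highest level for 16 members, and for 25.2% of those genes.

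Member by member, log2 ratios were taken with a pseudocount of 10 CPM over the 9282 human genes with a mean of at least 10 CPM, which 41 members reach. CDC25C, the phosphatase that completes CDK1 activation, is the member below it, with 7.05, 9.01, 9.33 and 8.68 CPM. The median member log2 ratio to control was 0.18 in agrimoniin, 0.18 in erlotinib and 0.05 in the combination, against 0.03, 0.02 and 0.02 over all genes tested. A gene was called higher when its level was at least 25% above that of the other library on this scale, and lower when the ratio was 0.8 or under. In agrimoniin 8 members were called higher than in control, where 7.18% of all tested genes were, and 1 was called lower, where 4.71% were. With erlotinib 12 members were called higher (background 7.82%) and 0 lower (background 6.17%). With the combination 4 members were called higher (background 7.46%) and 4 lower (background 6.55%). At a stricter 1.5-fold, agrimoniin had 0 members higher (background 0.506%) and 0 lower (0.409%), and the combination 0 higher (0.571%) and 0 lower (0.528%). Erlotinib had 4 members higher at that fold (0.851%) and 0 lower (0.733%).

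**Figure D4:**
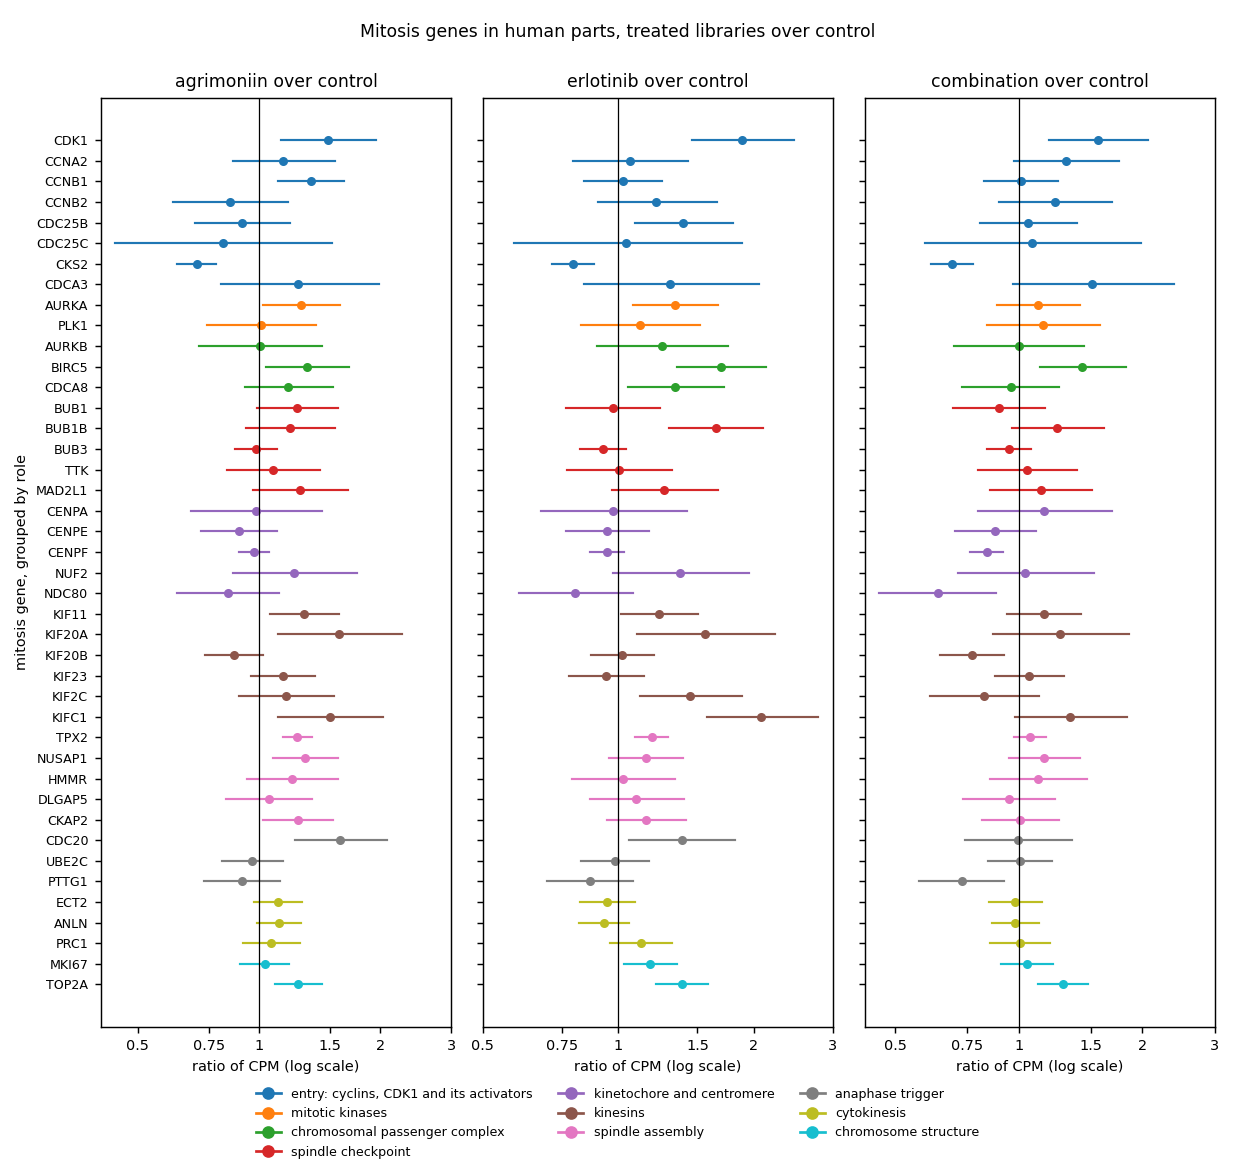
Ratio of CPM to control for all 42 mitosis genes in the agrimoniin, erlotinib and combination libraries (log axis), grouped by role; lines are exact 95% intervals for counting error. CDK1, BIRC5, KIFC1 and TOP2A lie right of 1 in all 3 panels, and CKS2 and NDC80 lie left of it.

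Among the genes of mitotic entry, CDK1 (chromosome 10, 60778331-60794852, GRCh38) was higher in every treated library. Its level was 49.6 CPM in agrimoniin, 63.0 in erlotinib, 52.1 in the combination and 33.5 in control. The ratios to control were 1.48 (1.14 to 1.95), 1.88 (1.46 to 2.46) and 1.56 (1.19 to 2.06), and none of these intervals holds 1. CCNB1, the cyclin B1 that activates CDK1 at mitosis, differed from its partner: it had 92.1 CPM in agrimoniin, 70.2 in erlotinib, 69.5 in the combination and 68.6 in control, so that agrimoniin alone stood out (ratio to control 1.34, 1.11 to 1.63). CCNB2, cyclin B2, was lowest in agrimoniin, with 23.8 CPM, against 34.2 in erlotinib, 34.4 in the combination and 28.1 in control. CCNA2, cyclin A2 of S and G2 phase, had 36.0, 33.4, 40.8 and 31.4 CPM, and all 3 intervals of its ratios to control hold 1.

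CKS2 (chromosome 9, 89311198-89316703) went the other way from CDK1, to which its protein binds. It had 176 CPM in agrimoniin, 200 in erlotinib, 173 in the combination and 252 in control. The ratios were 0.700 (0.626 to 0.783), 0.793 (0.712 to 0.884) and 0.688 (0.611 to 0.774), so that control was the highest library. CDC25B had its highest level in erlotinib, with 55.4 CPM, against 36.0 in agrimoniin, 41.8 in the combination and 39.7 in control. CDCA3 had 16.5, 17.2, 19.9 and 13.2 CPM, the lowest in control, with every interval of the ratio holding 1. Together the 8 entry genes summed to 438, 482, 441 and 475 CPM, and CKS2 alone made up 252 of the 475 CPM in control. Above control were 4 of the 8 in agrimoniin, 7 in erlotinib and 7 in the combination. Of the 9282 tested genes, 5132, 4963 and 4958 were above control.

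The summed ratio of the mitotic kinases to control was 1.259 for erlotinib (1.059 to 1.502), while the intervals for agrimoniin (ratio 1.179) and the combination (ratio 1.124) hold 1. AURKA, the Aurora A kinase of spindle poles, had 67.2 CPM in agrimoniin, 70.7 in erlotinib, 58.9 in the combination and 52.9 in control, with ratios of 1.27 (1.02 to 1.59), 1.34 (1.08 to 1.66) and 1.11 (0.883 to 1.41). PLK1, which acts from centrosome maturation to cytokinesis, had 29.3, 32.3, 33.1 and 28.9 CPM, and no ratio left counting error.

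The chromosomal passenger complex corrects faulty kinetochore attachments and guides cytokinesis. Its 3 genes in the list summed to 131 CPM in agrimoniin, 160 in erlotinib, 127 in the combination and 110 in control, and the erlotinib ratio of 1.46 (1.27 to 1.70) was the highest of any role against control. BIRC5 (chromosome 17, 78214186-78225636) had 58.8 CPM in agrimoniin, 75.5 in erlotinib, 63.7 in the combination and 44.6 in control, the lowest library. Its ratios were 1.32 (1.04 to 1.68), 1.69 (1.35 to 2.13) and 1.43 (1.12 to 1.82). CDCA8, the borealin subunit, had 49.3, 55.9, 39.9 and 41.7 CPM, and only the erlotinib ratio of 1.34 (1.05 to 1.72) left counting error. AURKB, the Aurora B kinase of the complex, had 23.3, 28.9, 23.2 and 23.1 CPM, without a ratio that did so.

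In the spindle checkpoint, BUB1B (BubR1), an inhibitor of the anaphase-promoting complex, was highest in erlotinib. It had 48.8 CPM in agrimoniin, 67.3 in erlotinib, 50.8 in the combination and 40.9 in control, and the erlotinib ratio was 1.65 (1.30 to 2.10). BUB1, the kinase that marks centromeric chromatin, was instead highest in agrimoniin, with 59.6 CPM, against 46.6 in erlotinib, 42.8 in the combination and 47.9 in control. BUB3 had 192, 180.4, 185 and 195 CPM and was among the steadiest members. TTK (Mps1), the kinase that starts checkpoint signalling, had 41.7, 38.7, 40.2 and 38.4 CPM. MAD2L1 (Mad2), which captures CDC20, had 43.9, 44.0, 39.2 and 34.7 CPM, and the intervals of its ratios hold 1.

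The kinetochore genes were the role with the lowest summed ratio to control in the combination. They summed to 483 CPM in agrimoniin, 478 in erlotinib, 425 in the combination and 501 in control, with ratios of 0.963 (0.895 to 1.037), 0.954 (0.887 to 1.027) and 0.847 (0.783 to 0.917). NDC80 (chromosome 18, 2571511-2616635), which holds microtubule ends, had 30.1 CPM in agrimoniin, 28.9 in erlotinib, 22.8 in the combination and 35.9 in control. The combination ratio was 0.635 (0.458 to 0.879), and the intervals of the other ratios hold 1. CENPF had 351, 342, 302 and 362 CPM, and its combination ratio of 0.835 (0.760 to 0.916) also left counting error. CENPE, a kinesin of the kinetochore, had 55.3, 58.5, 54.4 and 62.0 CPM. NUF2, the partner of NDC80 in the same complex, had 25.7, 28.9, 21.9 and 21.1 CPM and was lowest in control. CENPA, the centromeric histone, had 20.3, 20.1, 23.8 and 20.7 CPM.

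Kinesins move along microtubules to build and separate the spindle. KIFC1 (chromosome 6, 33391536-33409924), a minus-end motor that clusters centrosomes, had the highest ratio of all members in erlotinib. Its level was 41.5 CPM in agrimoniin, 57.5 in erlotinib, 37.0 in the combination and 27.7 in control, with ratios of 1.498 (1.12 to 2.03), 2.08 (1.57 to 2.77) and 1.34 (0.980 to 1.83). KIF20A, which carries the passenger complex to the central spindle, had 30.6, 30.2, 24.4 and 19.4 CPM, and both single-drug ratios, 1.58 (1.11 to 2.27) and 1.56 (1.10 to 2.23), left counting error.

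KIF2C, a motor that depolymerises microtubules at centromeres, had 41.5 CPM in agrimoniin, 51.4 in erlotinib, 29.3 in the combination and 35.5 in control. Erlotinib was the highest library and the combination the lowest. KIF20B, which acts in cytokinesis, had 92.4, 108.9, 82.0 and 106.6 CPM, with a combination ratio of 0.769 (0.645 to 0.918). KIF11 (Eg5), which pushes spindle poles apart, had 85.1, 81.0, 75.6 and 65.7 CPM. KIF23, a part of centralspindlin, had 89.1, 73.1, 82.3 and 77.7 CPM.

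All 5 spindle assembly genes were above control in both single-drug libraries. Of the 9282 tested genes, 5132 were above control in agrimoniin and 4963 in erlotinib. The intervals of HMMR and DLGAP5 hold 1 in both libraries, and those of NUSAP1 and CKAP2 hold 1 in erlotinib. They summed to 704 CPM in agrimoniin, 662 in erlotinib, 606 in the combination and 570 in control. The ratios were 1.235 (1.156 to 1.319), 1.160 (1.086 to 1.240) and 1.063 (0.991 to 1.140). TPX2, with the closest tie to the score, had 434, 414, 371 and 349 CPM, and its ratios were 1.24 (1.14 to 1.35), 1.19 (1.09 to 1.29) and 1.06 (0.972 to 1.16). Its neighbours in the list act on the same microtubules. NUSAP1, which stabilises microtubules near chromatin, had 93.8, 82.9, 83.0 and 71.9 CPM. HMMR, which helps to organise spindle poles, had 47.4, 40.3, 43.7 and 39.3 CPM. DLGAP5 (HURP), which stabilises kinetochore fibres, had 48.5, 50.3, 43.4 and 45.9 CPM, and CKAP2, another protein of spindle microtubules, had 80.5, 74.4, 65.0 and 64.5 CPM.

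Anaphase is triggered when CDC20 activates the anaphase-promoting complex, UBE2C loads it with ubiquitin and securin, the product of PTTG1, is destroyed. CDC20 (chromosome 1, 43358955-43363203) had the highest ratio of all members in agrimoniin. Its level was 53.9 CPM in agrimoniin, 46.9 in erlotinib, 33.8 in the combination and 33.9 in control, with ratios of 1.59 (1.23 to 2.08), 1.38 (1.06 to 1.82) and 0.997 (0.740 to 1.35). UBE2C had 87.5, 89.3, 91.3 and 90.9 CPM and was nearly level. PTTG1 had 55.8, 53.2, 44.7 and 61.6 CPM, with a combination ratio to control of 0.726 (0.572 to 0.921). Its level is uncertain, since near-identical copies of it exist in the genome, and their part in its counts was not tested.

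The cytokinesis genes were highest in agrimoniin, where they summed to 448 CPM, against 399 in erlotinib, 400.1 in the combination and 405 in control. ANLN (anillin), the scaffold of the contractile ring, had 187, 155, 164 and 167 CPM. ECT2 had 152.5, 129, 134 and 137 CPM, and PRC1 had 109, 114, 102 and 102 CPM. The summed agrimoniin ratio to control was 1.106 (1.022 to 1.199), while the intervals of the single-gene ratios to control hold 1.

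Of the chromosome structure genes, TOP2A (chromosome 17, 40388516-40417950) had 172 CPM in agrimoniin, 190.2 in erlotinib, 176 in the combination and 137 in control. The ratios were 1.252 (1.095 to 1.435), 1.39 (1.22 to 1.58) and 1.28 (1.12 to 1.47), so that control was the lowest library. MKI67 had 141, 160.5, 143 and 136 CPM, a narrower spread than TOP2A. Both are common markers of proliferating cells.

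The members were then divided into an early and a late list by a rough placing of their products in G2 or mitosis. The early list held 13 genes, among them CCNA2, CDK1, TOP2A, MKI67, KIF11 and NDC80. The late list held 22 genes, among them CCNB1, PLK1, CDC20, TPX2, PRC1 and BIRC5, and 7 members were in neither. The lists do not separate G2 from mitosis cleanly. The early list also held the kinetochore gene NUF2 and KIF20B, which acts in cytokinesis, and the late list held CDC25B, which starts CDK1 activation. Early genes summed to 996 CPM in agrimoniin, 1060 in erlotinib, 949 in the combination and 898 in control. Late genes summed to 1973, 1994, 1780 and 1868 CPM. The late list thus made up 66.5% of both in agrimoniin, 65.3% in erlotinib, 65.2% in the combination and 67.5% in control.

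The late minus early difference of log2 ratios to control was -0.07 in agrimoniin (counting interval -0.16 to 0.02), -0.14 in erlotinib (-0.24 to -0.05) and -0.15 in the combination (-0.25 to -0.05). The early list thus had the higher ratio in erlotinib and in the combination, by a small margin, while the agrimoniin interval holds 0. CKS2 is in the late list. Without CKS2, an alternative chosen after seeing the data, the differences were 0.00, -0.09 and -0.09. No interval was computed for these, so whether they leave counting error is not known.

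The combination library had a lower member level than agrimoniin alone, at 0.914 times its summed level (0.890 to 0.938), with a median log2 ratio of -0.13, against -0.01 over all genes. In this comparison 1 member was called higher (background 4.05%) and 4 were called lower (background 4.9%), and at 1.5-fold 0 were higher (0.312%) and 0 lower (0.259%). CDC20 was the lowest, with 33.8 CPM in the combination and 53.9 in agrimoniin, a ratio of 0.626 (0.490 to 0.797). KIF2C followed at 0.706 (0.539 to 0.921), BUB1 at 0.718 (0.574 to 0.894), CCNB1 at 0.754 (0.633 to 0.897) and NDC80 at 0.759 (0.556 to 1.032). CCNB2 was the member called higher, with 34.4 CPM in the combination and 23.8 in agrimoniin, a ratio of 1.44 (1.08 to 1.94). Without a minimum fold, 12 of the 41 tested members were above agrimoniin and 29 below. Of the 9282 tested genes, 4313 were above and 4969 below.

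Against erlotinib alone the combination had nearly the same summed ratio, 0.907 (0.884 to 0.931), with a median log2 ratio of -0.15. Here 0 members were called higher (background 5.24%) and 7 lower (background 5.02%), and at 1.5-fold 0 were higher (0.549%) and 1 lower (0.366%). KIF2C had the lowest ratio, 0.570 (0.439 to 0.734), with 29.3 CPM in the combination and 51.4 in erlotinib. KIFC1 stood at 0.644 (0.509 to 0.810), CDCA8 at 0.714 (0.567 to 0.895), CDC20 at 0.720 (0.560 to 0.922) and KIF20B at 0.753 (0.642 to 0.883). The passenger complex was lower as a role, with a summed ratio of 0.791 (0.695 to 0.899), and the kinesins at 0.822 (0.759 to 0.891). CCNA2 had the highest ratio, 1.22 (0.949 to 1.58), which counting error does not separate from 1.

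Between the single drugs, the summed members had a ratio of erlotinib over agrimoniin of 1.007 (0.984 to 1.032). The genes named below were picked for the highest and lowest ratios, so they lie far from 1 by selection. In erlotinib 4 members were called higher than in agrimoniin (background 4.36%) and 1 lower (background 5.14%), and at 1.5-fold 0 were higher (0.377%) and 0 lower (0.603%). CDC25B had a ratio of 1.54 (1.23 to 1.92), CCNB2 of 1.43 (1.08 to 1.90), KIFC1 of 1.39 (1.12 to 1.72) and BUB1B of 1.38 (1.14 to 1.68). On the lower side CCNB1 had 0.762 (0.646 to 0.897) and BUB1 0.782 (0.638 to 0.958). CCNB1 and CCNB2, the B-type cyclins, thus stood in opposite order in these libraries.

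Agrimoniin without erlotinib (agrimoniin over control) and with it (combination over erlotinib) are comparisons that share no library. Of the 42 members, 21 (50%) were higher without erlotinib and lower with it, while 2582 of the tested genes (27.8%) showed that order. The opposite order held for 5 members and for 21.3% of the tested genes. Ratios were higher in both comparisons for 9 members and 27.5% of the tested genes, and lower in both for 7 members and 23.4%. CDC20 had ratios of 1.59 without erlotinib and 0.720 with it, KIFC1 of 1.498 and 0.644, and KIF20A of 1.58 and 0.810. CKS2, NDC80 and KIF20B were lower both times. Over the summed members, the log2 ratio with erlotinib was lower than that without it, at a difference of -0.26. With 1 library per group this difference could not be tested.

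**Figure D5:**
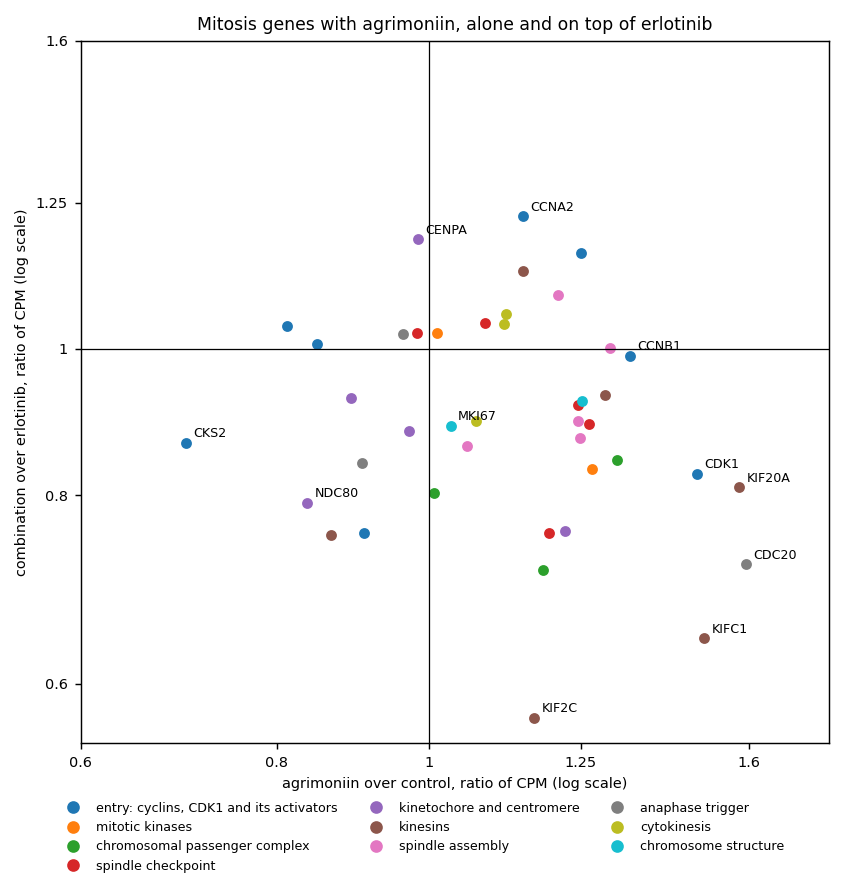
Each point is a mitosis gene, coloured by role, with its CPM ratio of agrimoniin over control on the horizontal axis and of the combination over erlotinib on the vertical axis (both log scales). The lower right field holds 21 of the 42 genes, among them CDC20, KIFC1, KIF20A and CDK1.

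Among the regulators of the programme, FOXM1 and MYBL2 had few counts. FOXM1 had 17.9 CPM in agrimoniin, 17.2 in erlotinib, 16.4 in the combination and 18.6 in control, and MYBL2 had 13.3, 15.1, 15.8 and 10.7 CPM. The intervals of their ratios to control all hold 1. E2F4, of the DREAM complex, had more counts, with 58.25, 61.45, 51.78 and 41.31 CPM. Its ratios to control were 1.41 (1.107 to 1.806), 1.487 (1.171 to 1.9) and 1.253 (0.9705 to 1.625). The genes of this list called higher in agrimoniin and erlotinib were E2F4, LIN9 and LIN52, and in the combination LIN9. The list of transcription factors of the programme had 3 of 8 tested genes called higher than control in agrimoniin, 3 in erlotinib and 1 in the combination, with 0 lower in each. Of all tested genes, 7.18%, 7.82% and 7.46% were called higher in these comparisons, and 4.71%, 6.17% and 6.55% lower. In this and the following lists, the genes named as highest or lowest by ratio are those with a mean of at least 20 CPM, and genes below that level can lie farther out. LIN52, a MuvB subunit, had the highest ratio of its list in agrimoniin (1.59, 1.06 to 2.41) and erlotinib (1.57, 1.05 to 2.38), and LIN9, another subunit, in the combination (1.59, 1.09 to 2.35). LIN54, the subunit that reads the CHR, had the lowest among genes of at least 20 CPM, at 0.913, 0.996 and 0.852.

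Among the brakes of mitotic entry, WEE1 showed a difference well outside counting error. It had 729 CPM in agrimoniin, 484 in erlotinib, 619 in the combination and 695 in control, and the ratios to control were 1.05 (0.986 to 1.12), 0.696 (0.651 to 0.744) and 0.890 (0.834 to 0.951). Erlotinib was the lowest library. CDKN1A had 40.1, 56.4, 48.6 and 46.3 CPM. CDKN1B, the inhibitor p27, was lowest in agrimoniin, with a ratio to control of 0.665 (0.471 to 0.939). By the same calls, the 10 tested brakes had 0 genes higher and 1 lower in agrimoniin, 1 higher and 1 lower in erlotinib, and 0 in either direction in the combination. These counts are near the shares of all tested genes, 7.18%, 7.82% and 7.46% higher and 4.71%, 6.17% and 6.55% lower.

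Other genes of the same processes were, like the members, more often called higher than lower against control in the single-drug libraries. The list of further mitotic machinery had 8 of 41 tested genes called higher than control in agrimoniin, 9 in erlotinib and 3 in the combination, with 0, 0 and 1 lower. The backgrounds were 7.18%, 7.82% and 7.46% higher and 4.71%, 6.17% and 6.55% lower, and the 3 in the combination are near theirs. Its median log2 ratios were 0.12, 0.15 and 0.10. Its summed ratios were 1.085 (1.05 to 1.122), 1.158 (1.121 to 1.197) and 1.061 (1.025 to 1.099), so its sum was above control in the combination, unlike that of the members. Among its genes of at least 20 CPM, ZWINT, a kinetochore protein, had the highest ratio in agrimoniin (1.64, 1.245 to 2.17) and in the combination (1.81, 1.37 to 2.40), and the motor KIF4A in erlotinib (1.71, 1.28 to 2.29). At the same minimum TACC3, a spindle protein, had the lowest ratio of the combination to either single drug, at 0.630 (0.453 to 0.869) over agrimoniin and 0.597 (0.431 to 0.820) over erlotinib.

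Replication and S phase genes had 8, 13 and 5 of 28 tested genes called higher than control in agrimoniin, erlotinib and the combination, and 0 lower in each. For these and the condensin list below, the backgrounds were 7.18%, 7.82% and 7.46% higher and 4.71%, 6.17% and 6.55% lower. Their summed ratios were 1.163 (1.112 to 1.216), 1.242 (1.188 to 1.298) and 1.153 (1.101 to 1.208), so this list was above control in the combination library too. There the summed members stood at 0.992 and the further mitotic machinery at 1.061. Among genes of at least 20 CPM, the helicase gene MCM6 had the highest ratio in agrimoniin, 1.40 (1.07 to 1.85), and the flap endonuclease gene FEN1 in erlotinib, 1.59 (1.201 to 2.13), and the combination, 1.59 (1.19 to 2.15). The condensin and cohesion list had 0, 2 and 0 of 10 tested genes called higher than control and 0 lower, with summed ratios of 1.032, 1.086 and 0.992.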

How the data were processed

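The authors deposited raw UMI counts for human and mouse genes in each barcode, made with Cell Ranger on the builds hg38 and mm10, per the submitters' processing notes, with no version stated there. Tumours had been dissociated with collagenase II and put on a Chromium chip, per the labels, although the 27-base barcodes do not have that kit's layout. Human-gene UMIs of a barcode formed its human part, kept with at least 500 UMIs, 250 genes and at most 25% mitochondrial UMIs. UMIs were summed per library and scaled to CPM. Ratios have exact 95% intervals conditional on the sum of both counts, and shares exact Clopper-Pearson intervals. Calls of higher and lower used a pseudocount of 10 CPM, which understates changes of low genes. No p-value was computed, because each group has 1 library. Genes given in full were a set of standard markers and, for each of 6 library pairs, the 5 highest and 5 lowest members by ratio at a mean of at least 20 CPM. The members, gene lists and tests were chosen with earlier results of these data known. Gene spans are from GENCODE 29 (GRCh38). The calculations were checked on simulated counts and ran in Python 3.11.15 with numpy 2.4.6, scipy 1.17.1 and pandas 2.3.3. Other part filters, scalings, pseudocounts, minimum levels and folds were tried.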

Additional observations from a re-analysis of the deposited data

Results flagged for a closer look

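The summed mitosis genes stood on opposite sides of 1 when agrimoniin was compared without and with erlotinib. The ratio of agrimoniin over control was 1.086 (1.056 to 1.117), and that of the combination over erlotinib was 0.907 (0.884 to 0.931). The difference between these was not tested, since each group is 1 library.

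The mouse RNA in the same barcodes was not used in the comparisons above. There, the 42 mouse orthologs of the members summed to 965 counts per 1000000 mouse UMIs (CPM) in agrimoniin, 930 in erlotinib, 954 in the combination and 578 in control, above the control level in every treated library. The ratios to control were 1.67 (1.52 to 1.84), 1.61 (1.46 to 1.77) and 1.65 (1.49 to 1.83). Of the 42 orthologs, 37, 39 and 37 were higher than in control. Among the 8774 mouse genes with a mean of at least 10 CPM, 50.7%, 51.6% and 47.5% were higher, and of the 24 orthologs at that level 22, 23 and 24 were. The makeup of the host RNA differed too. Summed macrophage markers had 3986 CPM in agrimoniin, 4832 in erlotinib, 3928 in the combination and 3251 in control, summed fibroblast markers 27767, 33515, 32325 and 34429, and summed endothelial markers 114, 51.2, 51.5 and 65.2. Their part in the ortholog levels was not tested. Mki67 had 125, 80.0 and 139 CPM in agrimoniin, erlotinib and the combination and 78.2 in control, and Top2a had 81.5, 90.8, 60.5 and 42.6. Within a library, the human mitosis score of a barcode and the mouse ortholog score had coefficients of 0.09, 0.03, 0.03 and 0.15.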

How the results depend on the processing

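No paired analysis was possible because each group has 1 library. Alternatives were run for the summed members, their medians and counts, the late minus early differences, the shares of high parts and the named members. Among these, no ratio whose counting interval excluded 1 changed side. Role sums, the other gene lists with their genes, and the mouse orthologs were not rerun. Of 896 alternative values of single members 875 moved by less than counting error and 21 by more, mostly with parts limited to at most 10% mitochondrial UMIs; for the values below, the cause was not tested unless a setting's construction gives it.

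With at most 10% mitochondrial UMIs (94 to 168 parts per library), the summed ratios were 1.131 for agrimoniin over control, 1.069 for the combination over control, 0.945 for the combination over agrimoniin, 0.964 for the combination over erlotinib and 0.980 for erlotinib over agrimoniin, so that the second and the last of these changed side of 1. The median log2 ratio of the combination over control was then 0.15. With at least 75% human UMIs (66 to 163 parts), the summed ratios were 1.052, 1.162 and 0.951 for agrimoniin over control, erlotinib over control and the combination over agrimoniin, and 0.861 and 1.105 for the combination over erlotinib and erlotinib over agrimoniin, with median log2 ratios of -0.23 and 0.15 in those last comparisons. As a mean over parts, the combination stood at 0.950 over control and 0.876 over erlotinib. Without the 5% of parts with the most member UMIs, erlotinib over agrimoniin was 1.037. From list medians, the late minus early difference of the combination over agrimoniin was 0.03.

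Counts fell where fewer members were tested or a larger fold was asked. At a minimum mean of 50 CPM, which 21 members reach, the members called higher were 4 in agrimoniin (4.45% of all genes at that level), 4 in erlotinib (5.39%) and 2 in the combination (5.24%) over control, 0 in the combination over agrimoniin (2.98%) and 1 in erlotinib over agrimoniin (3.45%). Those called lower were then 1 in the combination over agrimoniin (2.81%) and 2 in the combination over erlotinib (3.6%). At 1.5-fold, 4 members were higher in erlotinib over control and 1 lower in the combination over erlotinib, and 0 passed either way in agrimoniin or the combination over control, in the combination over agrimoniin and in erlotinib over agrimoniin. With a pseudocount of 1 CPM, 1 member was lower in erlotinib over control (10.7% of all tested genes) and 2 in erlotinib over agrimoniin (9.91%). At 3 times the median score, high parts made up 26.2% in agrimoniin, 25.4% in erlotinib, 22.4% in the combination and 25.4% in control.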

Other observations

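The genes whose levels ran most against the mitosis score across human parts were picked out after their values were seen. PLOD2, a lysyl hydroxylase of collagen, had a median coefficient of -0.33 over the 4 libraries (-0.42 to -0.24). P4HA1, a prolyl hydroxylase subunit of collagen, had -0.28 (-0.30 to -0.26). APP, the amyloid precursor protein gene, had -0.30, the lysosomal sulfatase gene IDS -0.29 and the lysosomal prosaposin gene PSAP -0.28. In high parts the replication and S phase list summed to 2388 CPM in agrimoniin, 2334 in erlotinib, 2451 in the combination and 2031 in control, and in the other parts to 878, 1023, 787 and 832 CPM.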
